A study of Mus musculus with 74 samples.

Results

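The genes of 3 families that build or bind the extracellular matrix were described in mouse L4 dorsal root ganglia (DRG) and in sensory neurons sorted from those ganglia. Members were protein-coding genes whose symbol marks a collagen (Col and a digit), a laminin (Lama, Lamb or Lamc and a digit) or an integrin (Itga or Itgb with a digit or a leukocyte or vitronectin letter). They also needed 10 or more reads on average in the 8 whole DRG libraries. Of 53379 genes counted, 17616 had such a mean, 87 protein-coding genes had such a symbol, and 82 genes met both conditions, with 42 collagen, 11 laminin and 29 integrin symbols. The member with the lowest mean count was Itgb2l at 11.1 reads, and the gene just under the minimum was Col6a4 at 9.62 reads. Itgad, Col9a1, Col6a6 and Itgb1bp2 were the other 4 matches left out. Col4a3bp, Itgb1bp1, Itgb3bp, Itgbl1 and Itgb2l carry such a symbol without being counted here as a chain or subunit. They were kept as 5 members of the rule, and left 41 collagen chains, 11 laminin chains and 25 integrin subunits.

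The study asked how sensory neurons respond to injury of the central branch of their axon compared with the peripheral branch. Whole DRG came from female wild type C57BL/6 mice aged 10 to 12 weeks, 4 uninjured and 4 taken 1 day after spinal cord injury (SCI). The SCI is labelled a dorsal hemisection at T9/10, and the methods of the study describe a transverse cut of the dorsal column. Sorted cells came from female Thy1YFP16 mice aged 10 to 20 weeks, in which the Thy1 promoter drives YFP in large-diameter neurons whose axons ascend the spinal cord. These mice were naive (6 mice) or had sciatic nerve injury (SNI, a crush) or SCI 1 or 3 days before, with 4 mice in each of the 4 injured groups. Ganglia were dissociated with papain and collagenase, and 3 wells of about 100 YFP+ cells were made per mouse, which are technical replicates and were summed. Whole DRG after SNI was not analysed here. Libraries held 21959030 to 44493319 reads on genes per whole DRG and 30518187 to 83599972 per sorted mouse.

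The sorted wells did not all match their label. In 20 of 66 wells, from 14 mice, the summed CPM (counts scaled to 1 common library size) of 10 glial markers exceeded those of 9 neuronal markers. Their median neuronal marker sum was 477.6 CPM against 35035.0 CPM in the other 46 wells, and their median glial marker sum was 76308.6 CPM against 6454.9 CPM. Their median fibroblast marker sum was also higher, at 12582.6 CPM against 390.3 CPM, whereas endothelial, mural and macrophage markers had medians of 17.8 CPM or less in both kinds of well. Naive mice held 6 of these glia-rich wells, SNI mice 3 at 1 day and 4 at 3 days, and SCI mice 3 at 1 day and 4 at 3 days. SNI 3 d replicate 3 and SCI 3 d replicate 3 held no other well. In the wells of SCI 3 d replicate 3, fibroblast markers (89544.7 to 158248.2 CPM) exceeded glial markers (32450.3 to 47626.1 CPM). These wells are called glia-rich only by the rule above. The counts of called members, the calls of named members and the counts of partner genes are therefore given for all 22 mice and for the 20 mice left without the glia-rich wells, and the other values after injury without those wells.

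Collagens are secreted as triple helices. Fibrillar collagens form the fibres of the endoneurium and epineurium, type IV collagens form the network of basement membranes, and FACIT collagens sit on the surface of fibrils. Laminins are trimers of an alpha, a beta and a gamma chain that line the basement membrane around Schwann cells, satellite glia and vessels. Integrins are cell surface receptors made of an alpha and a beta subunit. Itgb1 pairs with most of the alpha subunits that bind laminin or collagen, and axon growth on laminin depends on integrins of this kind.

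Itgb1 was the most abundant member in uninjured DRG. Levels are compared between genes in TPM, a per-length scale that sums to the same total in each library and divides each count by the exon length of the gene. Itgb1 had 464.6 ± 12.8 TPM (SD, n = 4), with mice between 454.2 and 483.0 TPM. It was followed by Itga7, the alpha subunit of a laminin receptor, at 142.4 ± 14.0 TPM (SD, n = 4), and by Col28a1, a short collagen known from peripheral nerve glia, at 130.3 ± 33.1 TPM (SD, n = 4). Mice ranged from 132.5 to 163.1 TPM for Itga7 and from 106.8 to 178.8 TPM for Col28a1, so those levels overlapped between the genes, and both lay under every Itgb1 value.

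Few genes carried most of the laminin and integrin transcripts. Itgb1, Itga7 and Itgb8 held 72.78% of the summed integrin TPM, and Lamb1, Lamb2 and Lamc1 held 70.76% of the laminin TPM, whereas the 3 highest collagens, Col28a1, Col4a1 and Col5a3, held 34.06% of the collagen TPM. The collagen chains summed to 941.7 ± 262 TPM, the laminin chains to 171.2 ± 22.8 TPM and the integrin subunits to 935.0 ± 54.7 TPM (SD, n = 4 each). Of 41 collagen chains, 22 reached 10 TPM, as did 5 of 11 laminin chains and 9 of 25 integrin subunits.

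Among collagens the fibril-forming Col5a3 (91.7 TPM), Col1a2 (81.5 TPM), Col3a1 (75.0 TPM) and Col1a1 (45.5 TPM) and the basement membrane chains Col4a1 (98.7 TPM) and Col4a2 (51.1 TPM) led their classes. The other 4 type IV chains, Col4a3 to Col4a6, stood between 0.260 and 4.62 TPM. Laminin alpha chains were led by Lama4 (20.2 TPM) and by Lama2 (11.6 TPM), the alpha chain of Schwann cell basement membrane. The beta chains Lamb1 (46.2 TPM) and Lamb2 (40.0 TPM) and the gamma chain Lamc1 (35.0 TPM) were higher than any alpha chain. Among integrins, the laminin-binding Itga3 (58.2 TPM) and Itga6 (47.2 TPM) and the vitronectin receptor subunit Itgav (30.5 TPM) followed Itga7 among the alpha subunits. The collagen-binding Itga1 (2.65 TPM), Itga2 (3.95 TPM), Itga10 (0.611 TPM) and Itga11 (2.55 TPM) were low, and the 4 leukocyte alpha subunits were at 0.428 to 0.714 TPM.

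**Figure D1:**
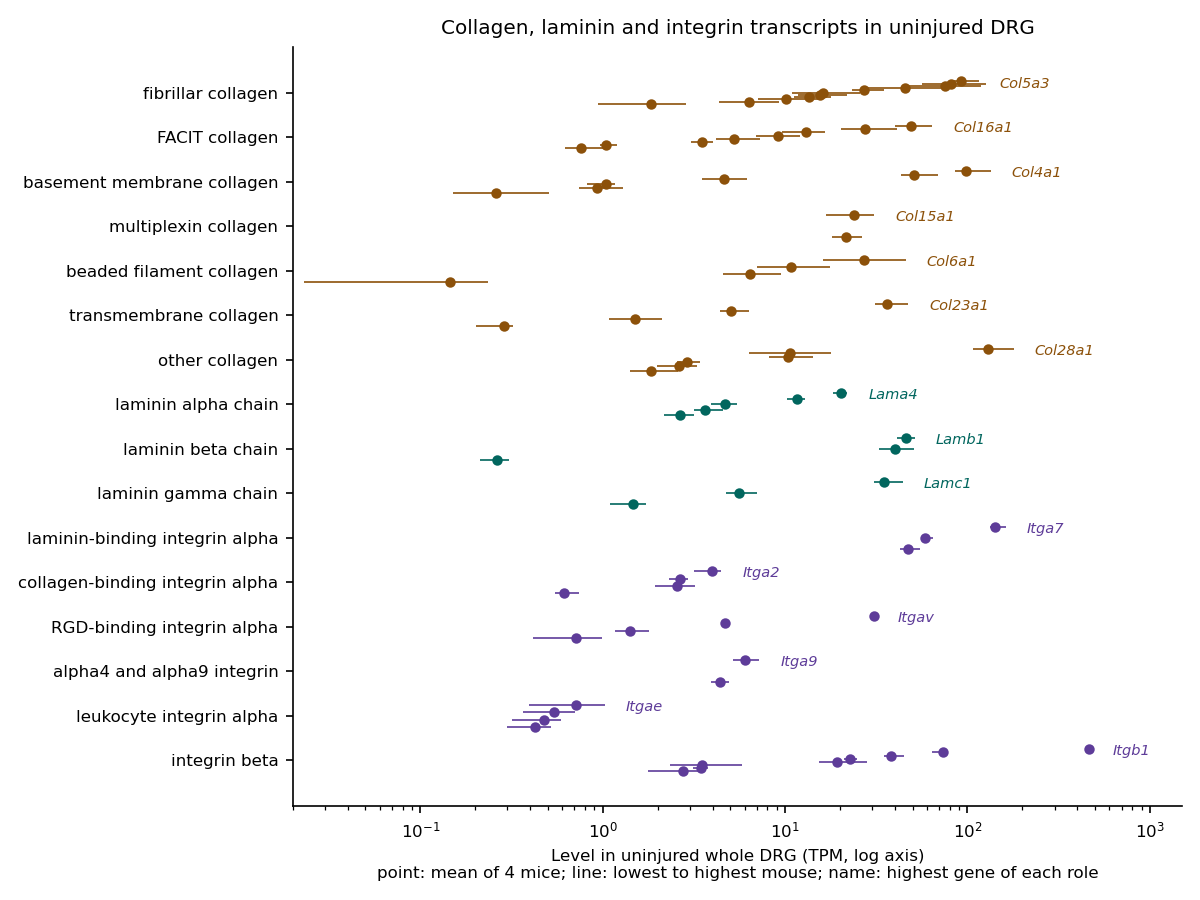
Level of each of the 77 chains and subunits in uninjured whole DRG, in TPM on a log axis, grouped by role. Points are means of 4 mice, lines run from the lowest to the highest mouse, and the highest gene of each role is named, with Itgb1 at 464.6 TPM the highest of all.

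Some pairs of chains of 1 molecule kept a steadier ratio between mice than others. The TPM ratio of Col4a1 to Col4a2 was 1.93 ± 0.0352 (SD, n = 4) in uninjured DRG and 1.82 ± 0.0949 (SD, n = 4) after SCI, while Col4a1 itself ran from 85.2 to 134.4 TPM over the uninjured mice. Col6a1 to Col6a2 was 2.46 ± 0.139 and 2.45 ± 0.220, Col6a1 to Col6a3 was 4.09 ± 0.574 and 5.16 ± 0.518, and Col1a1 to Col1a2 was 0.555 ± 0.0356 and 0.588 ± 0.122 (SD, n = 4 each). The differences between the groups were not tested. Taking the longest transcript of each gene as its length changed the Col1a1 to Col1a2 ratio to 0.264 in uninjured DRG, so the ratios are not molar ratios of protein.

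The promoter windows of Col4a1 and Col4a2 are shown because these genes stand head to head and their levels went together in whole DRG. In sorted cells the levels did not always do so. Over all wells they were 370.3 and 23.4 CPM in naive replicate 5, and 7.69 and 70.1 CPM in SNI 1 d replicate 2. The gene models overlap on chromosome 8 (GRCm38.p6). Reads in the overlap cannot be told apart if the counting ignored strand, which is not stated for these libraries. RefSeq windows cover 250 bases before to 50 bases after the transcript start. They share 78 bases, chr8:11312777-11312854. Capitals mark GC boxes (GGGCGG) and CCAAT boxes (CCAAT), both searched on either strand, which occur in 35.7% and 37.4% of the 32851 mouse promoter windows of this length.

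Col4a1, chr8:11312777-11313076, minus strand: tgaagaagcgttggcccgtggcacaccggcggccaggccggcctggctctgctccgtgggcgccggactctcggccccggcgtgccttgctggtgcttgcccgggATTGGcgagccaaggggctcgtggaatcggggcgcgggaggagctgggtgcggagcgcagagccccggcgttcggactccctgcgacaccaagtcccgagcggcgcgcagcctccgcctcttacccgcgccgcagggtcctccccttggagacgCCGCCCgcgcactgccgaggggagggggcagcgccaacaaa

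Col4a2, chr8:11312555-11312854, plus strand: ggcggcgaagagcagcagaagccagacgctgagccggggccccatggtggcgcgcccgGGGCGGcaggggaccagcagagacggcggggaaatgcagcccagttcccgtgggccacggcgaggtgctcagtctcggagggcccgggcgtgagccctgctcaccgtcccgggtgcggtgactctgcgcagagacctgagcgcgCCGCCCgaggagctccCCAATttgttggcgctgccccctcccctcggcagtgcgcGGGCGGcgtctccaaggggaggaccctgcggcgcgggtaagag

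The Col4a1 window held 1 GC box and 1 CCAAT box, and the Col4a2 window 3 and 1. Windows were found for 59 of 82 members, and 34 of the 64 windows of these members held a GC box, 16 a CCAAT box, 4 an AP-1 site (TGANTCA) and 1 a cAMP response element (TGACGTCA). An AP-1 site was in 7.81% of all windows and a cAMP response element in 1.79%. In all, 18 of 82 members lay within 100 kb of another member, among them the pairs Col3a1 and Col5a2, Col6a2 and Col6a1, Itga2 and Itga1, Itgam and Itgax, and the head-to-head pairs Col4a4 and Col4a3 and Col4a6 and Col4a5.

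In whole DRG, 3 of 82 members differed 1 day after SCI from uninjured DRG: Itgb6 and Col28a1 fell and Itgam rose (edgeR quasi-likelihood test, adjusted p under 0.1 over all 17616 genes). Over all genes tested, 408 were called, or 2.32%. Members not called included all 11 laminins, Itgb1 and all fibrillar and basement membrane collagens. In bulk tissue, fewer cells of a type and less RNA per cell cannot be told apart.

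Itgb6, the beta subunit of an epithelial receptor that activates latent TGF-beta, lies on chromosome 2 (GRCm38 chr2:60598292-60722643, minus strand). It had 6.27, 6.35, 5.60 and 5.38 CPM in the uninjured mice and 3.83, 3.78, 3.82 and 3.96 CPM after SCI. The groups did not overlap, and the SCI mice lay closer together than the uninjured ones. Its log2 fold change was -0.61 (SE 0.102, adjusted p = 0.0248), and the call was lost without uninjured replicate 2 (-0.57, adjusted p = 0.107).

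Col28a1 (chr6:7997808-8192617, minus strand) had 203.4, 147.2, 130.6 and 126.5 CPM in uninjured DRG and 83.6, 99.3, 83.8 and 88.5 CPM after SCI. Every SCI mouse was below every uninjured mouse, and uninjured replicate 1 stood above the other 3. Its log2 fold change was -0.77 (SE 0.140, adjusted p = 0.0349). The call was lost without uninjured replicate 2 (-0.79, adjusted p = 0.105) or without SCI replicate 1 (-0.74, adjusted p = 0.110).

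Itgam, the alpha subunit of the complement receptor of macrophages and neutrophils (chr7:128062640-128118491, plus strand), had 0.608, 0.698, 0.837 and 0.446 CPM in uninjured DRG and 1.28, 1.89, 1.34 and 1.26 CPM after SCI. Its log2 fold change was 1.14 (SE 0.232, adjusted p = 0.0469). The call was lost without uninjured replicates 2 (1.18, adjusted p = 0.138) or 4 (0.99, 0.127), or SCI replicates 1 (1.20, 0.106) or 2 (0.99, 0.129). Its beta partner Itgb2 had 2.39, 2.05, 2.25 and 1.31 CPM and after SCI 2.69, 3.39, 3.71 and 2.11 CPM, values that overlapped (0.60, adjusted p = 0.248). All 4 leukocyte alpha subunits had values above 0 for the log2 fold change, and Itgam alone was called.

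Markers of other cells moved with these genes. The summed red blood cell markers were 13.4 to 21.3 CPM in uninjured DRG and 20.7 to 88.6 CPM after SCI, with 4 of 5 markers called and raised. Neutrophil and monocyte markers summed to 13.1 to 21.3 CPM and 11.0 to 35.7 CPM, with 6 of 6 higher and none called, and macrophage markers to 54.8 to 74.5 CPM and 69.1 to 77.5 CPM, with 6 of 7 higher and Cx3cr1 called and lowered. Fibroblast markers summed to 787.0 to 1050 CPM and 1152 to 1578 CPM. There 5 of 7 were higher, Apod rose (0.83, adjusted p = 0.0148) and Lum fell (-0.71, adjusted p = 0.0950). With the haemoglobin level of each library as a covariate, none of the 82 members was called, nor with the fibroblast marker level, in fits that called 9 and 4 of all 17616 genes. The log2 fold changes in these 2 fits were -0.62 and -0.51 for Itgb6, -0.91 and -0.43 for Col28a1 and 0.72 and 0.56 for Itgam. The fibroblast sums did not overlap between the groups, and the red blood cell sums barely did. These fits therefore cannot separate the covariates from the injury, and the loss of calls cannot be assigned to either. Apod alone made up 407.8 to 609.0 CPM of the fibroblast sums in uninjured DRG and 750.5 to 999.3 CPM after SCI. The part of these cells in the result was not tested further.

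**Figure D2:**
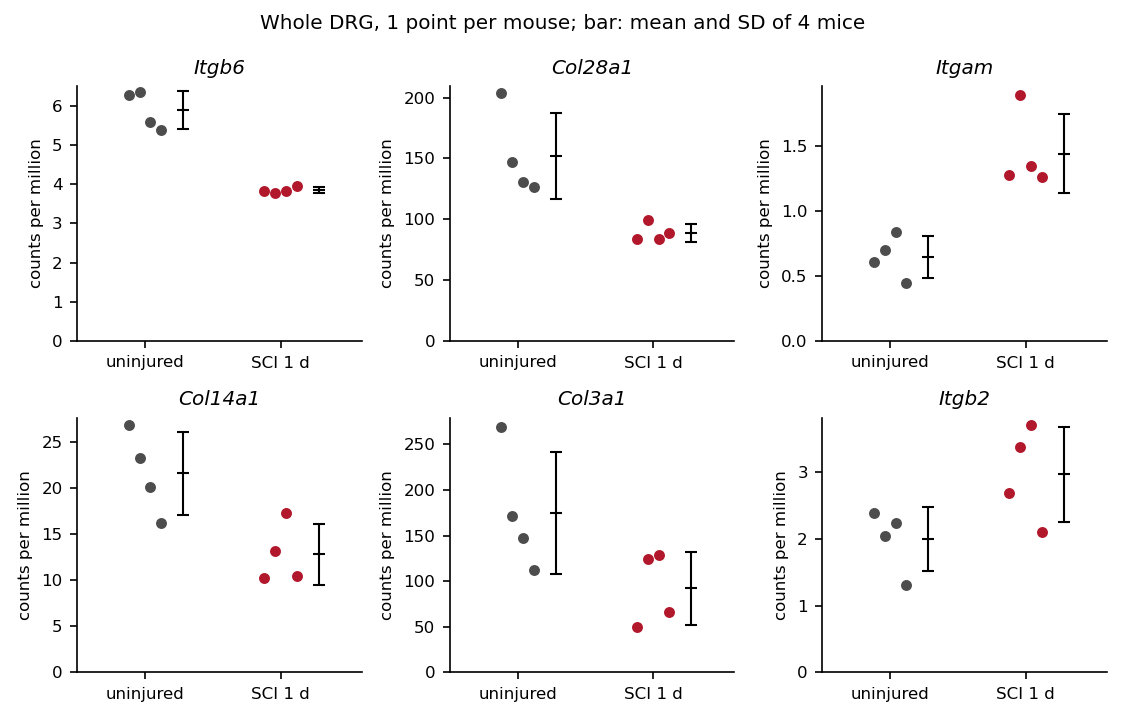
CPM of 6 members in each whole DRG library, with 1 point per mouse and the mean and SD of 4 mice beside them. Itgb6, Col28a1 and Itgam did not overlap between the groups, whereas Col14a1, Col3a1 and Itgb2 did.

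The groups did not overlap for 4 of 82 members, Itgam, Itgb6, Col28a1 and the low FACIT collagen Col20a1 (4.88%), against 11.0% of all genes. The median log2 fold change of the members was -0.03 and that of all genes was 0.01, with 37 members higher and 45 lower.

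More collagens were lower than higher after SCI, a split that depended on single mice. Of 42 collagen symbols, 11 were higher and 31 lower with a median log2 fold change of -0.22, and 1 was called. Of 11 laminins, 7 were higher (median 0.14), and of 29 integrin symbols, 19 were higher (median 0.09, 2 called). By role, 1 of 11 fibrillar collagens and 0 of 8 FACIT collagens were higher, with medians of -0.28 and -0.33, whereas 5 of 6 basement membrane collagens were (median 0.05). Uninjured replicate 1 held the highest value of its group for 37 of 42 collagens, and SCI replicate 3 for 27 of 42. Without uninjured replicate 1, 21 of 42 collagens were higher and their median was -0.03. Without SCI replicate 1 or SCI replicate 4, 16 and 14 were higher, with medians of -0.09 and -0.11. The haemoglobin covariate gave 4 higher (median -0.57) and the fibroblast covariate 8 (median -0.28).

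Col3a1, the fibrillar collagen of elastic tissue, shows this spread. It had 268.6, 171.0, 147.3 and 112.2 CPM in uninjured DRG and 50.2, 124.3, 128.7 and 65.8 CPM after SCI. The groups overlapped, and its log2 difference of -0.92 (SE 0.329) was not called (adjusted p = 0.232). Col1a1 and Col1a2, the chains of type I collagen, had log2 differences of -0.20 (SE 0.377) and -0.37 (SE 0.282). Col14a1, a FACIT collagen named after its values were seen, had 26.8, 23.2, 20.1 and 16.3 CPM against 10.3, 13.2, 17.3 and 10.5 CPM (-0.74, adjusted p = 0.113).

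No basement membrane collagen and no laminin was called, nor was Itgb1 or Itga7. Col4a1 differed by 0.02 (SE 0.179) and Col4a2 by 0.13 (SE 0.197) on the log2 scale, Lamb1 by -0.02 (SE 0.0972) and Lamc1 by 0.22 (SE 0.142), none called. Lama5, the alpha chain of vessel and epithelial basement membranes, differed by 0.43 (SE 0.190, adjusted p = 0.331). Itgb1 had 457.3, 450.9, 444.1 and 456.1 CPM in uninjured DRG and 479.8, 450.5, 420.1 and 467.9 CPM after SCI, a log2 difference of 0.01 (SE 0.0585). Itga7 had 306.2, 260.8, 261.1 and 269.8 CPM against 311.0, 304.5, 306.7 and 285.6 CPM, with 1 uninjured mouse inside the SCI range (0.14, SE 0.0680, adjusted p = 0.388).

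Of the other receptors named, Itga6, a laminin receptor subunit, had a log2 difference of -0.28 (adjusted p = 0.257) and Itgb3, the beta subunit of the vitronectin and platelet receptors, of -0.32 (adjusted p = 0.194). Without SCI replicate 3, both were called (-0.37, adjusted p = 0.0649, and -0.44, adjusted p = 0.0284). Itga5, the fibronectin receptor subunit, differed by 0.57 (adjusted p = 0.353). The remaining 20 genes of the panel described in every comparison lay between -0.37 and 0.22, with 8 higher, none called and no adjusted p below 0.50.

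**Figure D3:**
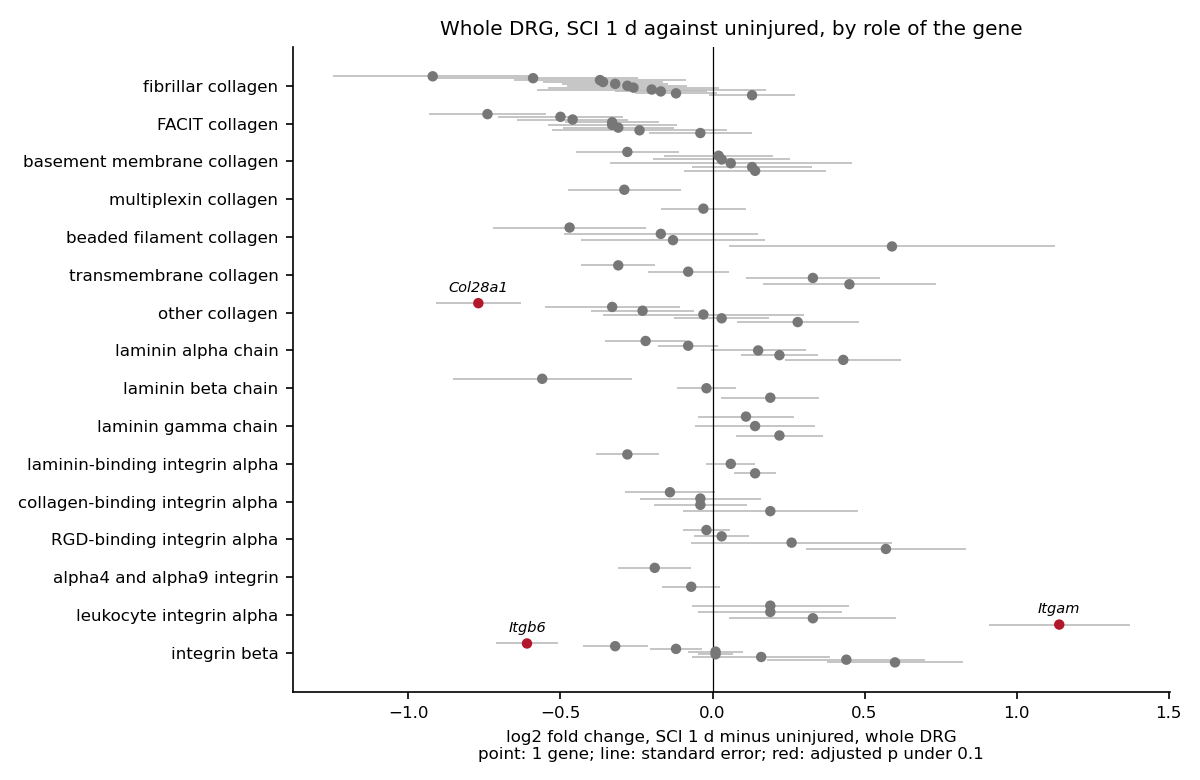
Log2 fold change of the 77 chains and subunits in whole DRG, SCI 1 d minus uninjured, grouped by role. Points are genes, lines are standard errors and red points passed an adjusted p of 0.1, which Itgb6, Col28a1 and Itgam did.

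A list of 62 partner genes, made of other matrix proteins, collagen-modifying enzymes, proteases and cytoplasmic adhesion proteins, was read beside the members. Of 61 tested in whole DRG, 32 were higher and 2 were called. Postn, a matrix protein that binds collagen, fell from 36.7, 48.2, 54.0 and 40.5 CPM to 20.4, 21.4, 19.0 and 20.4 CPM (-1.15, SE 0.116, adjusted p = 0.00186). Lox, the enzyme that cross-links collagen, rose from 14.7, 11.1, 13.3 and 16.6 CPM to 25.1, 43.9, 61.2 and 22.4 CPM (1.46, SE 0.290, adjusted p = 0.0447). The groups did not overlap for either gene.

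Sorted naive cells held fewer transcripts of all 3 families relative to the library than whole DRG. Over all wells, the naive sums were 172.5 ± 153 TPM for collagens, 61.6 ± 73.5 TPM for laminins and 285.0 ± 160 TPM for integrins (SD, n = 6). Without the glia-rich wells they were 49.2 ± 21.0, 11.5 ± 4.95 and 162.3 ± 67.5 TPM (SD, n = 6). Tissue, library kit and mouse line differ together between whole DRG and sorted cells and cannot be told apart, so these levels were not tested against each other.

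Itgb1 remained the most abundant member in naive sorted cells, at 129.5 ± 73.4 TPM over all wells and 90.1 ± 50.6 TPM without the glia-rich ones (SD, n = 6). Over all wells, Col4a1 (27.3 TPM), Col1a2 (22.1 TPM) and Col28a1 (19.9 TPM) led the collagens, Lamb1 (31.9 TPM), Lamc1 (14.9 TPM) and Lamb2 (6.04 TPM) the laminins, and Itga6 (36.7 TPM) and Itga7 (19.7 TPM) followed Itgb1. The Lamb2 mean came from 1 mouse at 35.8 TPM, and its median was 0.108 TPM. Without the glia-rich wells the order changed. Itga7 stood second among subunits at 22.7 ± 10.7 TPM, with mice from 11.0 to 37.8 TPM, while Itga6 was at 6.86 TPM, Lamb1 at 5.73 TPM, Col28a1 at 6.32 TPM and Col1a2 at 3.78 TPM. Col11a1, a minor fibrillar collagen, had the highest collagen mean there, 9.70 TPM, with mice from 0.0354 to 30.2 TPM.

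The members fell into different kinds of well, a description that was not tested because wells share mice and were sorted by their own transcripts. The median reached 1 TPM in both kinds of well for 13 members, in the glia-rich wells alone for 8 (Col14a1, Col18a1, Col1a1, Col3a1, Col5a2, Itgb4, Lama2 and Lama4), in the other wells alone for 9 and in neither for 52. The 9 were Col24a1, Itga2b, Itga3, Itga4, Itga7, Itgae and the name-only members Col4a3bp, Itgb1bp1 and Itgb3bp.

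Itga7 had a median of 31.8 TPM in the other wells, with 46 of 46 wells at 1 TPM or more, and a median of 0.894 TPM in the glia-rich wells, where 9 of 20 reached 1 TPM. The name-only member Itgb1bp1 had medians of 24.3 and 0.229 TPM, and 46 of 46 and 5 of 20 wells at 1 TPM or more. The collagens Col1a2 (87.3 against 3.18 TPM), Col28a1 (51.8 against 3.00 TPM) and Col4a1 (42.1 against 1.92 TPM) were higher in the glia-rich wells. So were the laminins Lamb1 (77.7 against 3.79 TPM) and Lamc1 (30.4 against 2.57 TPM) and the integrins Itga6 (80.8 against 11.8 TPM), Itgb8 (48.6 against 2.73 TPM) and Itgav (38.5 against 3.35 TPM). Itgb1 was high in both, at 188.6 and 106.1 TPM.

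**Figure D4:**
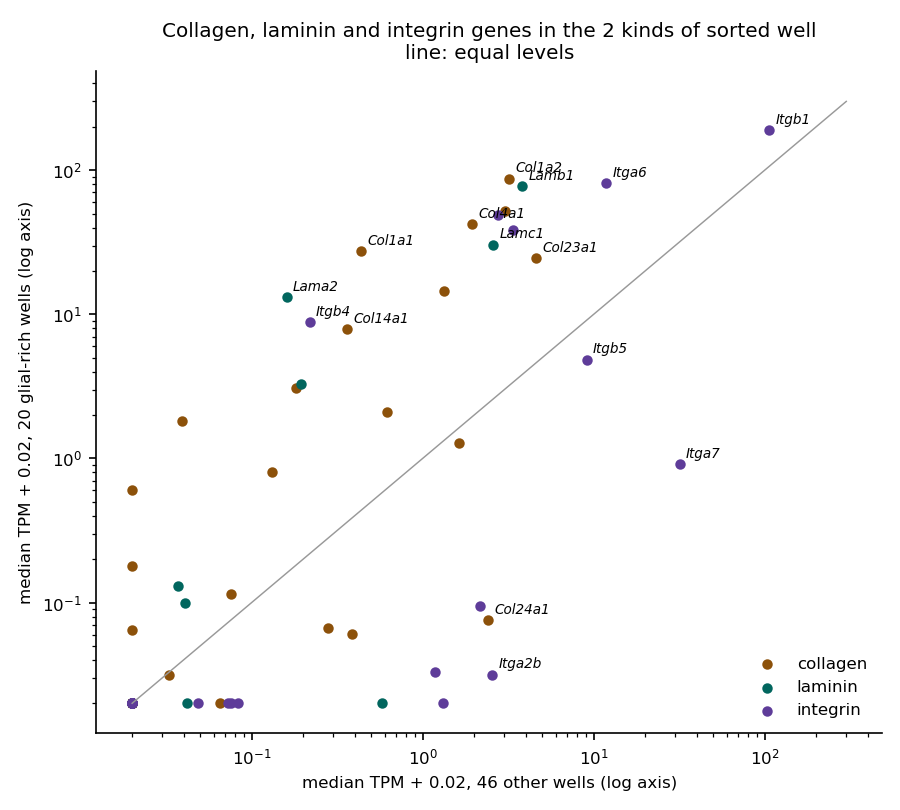
Median TPM of each of the 77 chains and subunits in 20 glia-rich wells (vertical) and 46 other wells (horizontal), both on log axes with 0.02 added. Genes above the line were higher in glia-rich wells, such as Col1a2, Lamb1 and Itga6, and Itga7 lay far below it.

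No member was called in sorted cells when all wells were kept. The table of 23507 genes, of which 80 were members, gave 0 of 80 in SNI 1 d against naive, where 0.685% of all genes were called, and 0 of 80 in SNI 3 d against naive, with 0.706% of all genes. The other counts were 0 of 80 in SCI 1 d against naive (0.017% of all genes), and 0 of 80 in SCI 3 d against naive, SNI 1 d against SCI 1 d and SNI 3 d against SCI 3 d (0.0% of all genes each). The 4 comparisons with naive mice share those mice. At an unadjusted p under 0.05 there were 12, 13, 14, 11, 16 and 11 members in these 6 comparisons in that order, beside 3519, 2992, 2981, 2208, 2408 and 1990 of the 23507 genes. DESeq2 called 8, 8, 9, 9, 8 and 3 members, beside 1562, 2236, 1252, 1221, 1116 and 974 genes. The spread was wide, with a median standard error of 1.13 on the log2 scale per gene against 0.123 in whole DRG. Modest differences were therefore not detectable, and large ones could be missed too.

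Over all wells, Itga7 had the values of a raised gene without passing the test. Naive mice ranged from 27.8 to 90.3 CPM with a median of 50.7 CPM, and SNI 1 d mice had 173.6, 168.8, 242.1 and 247.7 CPM, with no overlap. Its log2 difference was 1.84 (SE 0.579, adjusted p = 0.169). At SNI 3 d it had 416.1, 253.9, 99.1 and 328.2 CPM (2.19, SE 0.576, adjusted p = 0.119), where the low value is the mouse with glia-rich wells only. Itgb1 had log2 differences of 0.50 (adjusted p = 0.366) and 0.75 (adjusted p = 0.235) at 1 and 3 days, Itgb5 of 0.76 (adjusted p = 0.724) and 1.34 (adjusted p = 0.506), and Lamc1 of 0.49 (adjusted p = 0.858) and -0.15 (adjusted p = 0.996). These differences come from a fit with 2 factors of unwanted variation. Without them, Itga7 had 1.96 (adjusted p = 0.452) and 2.35 (adjusted p = 0.369) and Itgb1 0.24 and 0.50, whereas Itgb5 turned to -0.79 and -0.55 and Lamc1 had -1.67 and -0.51. The group means of the last 2 genes were highest in naive mice, at 21.6 CPM against 12.5 and 14.8 CPM for Itgb5 and at 57.1 CPM against 17.95 and 40.0 CPM for Lamc1.

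Without the glia-rich wells, 6 of the 73 members tested were called 1 day after SNI and 3 at 3 days, all raised. Over all 22620 genes tested, 8.17% were called in SNI 1 d against naive and 7.57% in SNI 3 d against naive. At 1 day, 6 of 73 is 8.22% of the members, close to the share of all genes. At 3 days, 3 of 73 is a smaller share than that of all genes. The members called at 1 day were Itga7, Itgb1, Lamc1, Itgb5, Col8a1 and Itgax, and those at 3 days Itga7, Itgb1 and Itgb5. Itgax reached the minimum of reads only in 1 SNI 1 d mouse, so it was tested only because of that mouse. No member fell. In this fit the median log2 fold change of all genes was itself 0.40 in SNI 1 d, 0.39 in SNI 3 d, 0.38 in SCI 1 d and 0.31 in SCI 3 d against naive. Without the 2 factors of unwanted variation, these medians were -0.05, -0.04, -0.06 and -0.06. Folds of Itga7, Itgb1, Itgb5 and Lamc1 where called, and of the named partners, are therefore also given without those factors. The other folds without the glia-rich wells, those of Lama3 and after SCI among them, are from the fit with the factors. The median of the 73 members was 1.26 at SNI 1 d and 0.37 without the factors. Without the factors, 1 of the 73 was called at each time, Itga7, beside 39 of all genes at 1 day and 14 at 3 days.

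Itga7 (chr10:128933818-128958282, plus strand) rose at both times. Naive mice ranged from 29.9 to 102.1 CPM with a median of 66.3 CPM. SNI 1 d mice had 226.3, 218.0, 332.8 and 282.0 CPM, and SNI 3 d mice 506.5, 273.3 and 328.7 CPM. Every SNI mouse lay above every naive mouse. The log2 fold change was 2.04 (SE 0.359, adjusted p = 0.00897) at 1 day and 2.54 (SE 0.382, adjusted p = 0.00677) at 3 days, and 2.00 (adjusted p = 0.0538) and 2.48 (adjusted p = 0.0226) without the factors. The sample titles distinguish 2 sets of sorted mice by a prefix, and what the prefix marks is not stated. The second set held 1 SNI 3 d mouse and 2 naive mice in this comparison. Those naive mice, replicates 5 and 6, kept 1 well each. Their wells held 14093.2 and 21675.4 CPM of neuronal markers and 9820.9 and 15983.5 CPM of glial markers. The ratios of the second set against naive mice rest on these mixed wells. Within the first and the second set, the log2 ratio of mean CPM was 1.78 and 2.15 at 1 day and 2.59 and 2.24 at 3 days.

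Itgb1 (chr8:128685654-128733200, plus strand) also rose. Naive mice ranged from 53.2 to 268.3 CPM with a median of 106.5 CPM. Its values were 217.4, 179.6, 330.6 and 211.8 CPM at SNI 1 d and 418.8, 269.5 and 289.1 CPM at SNI 3 d. Naive replicate 5 lay inside the 1 d range and just below the 3 d range. The log2 fold change was 1.07 (SE 0.224, adjusted p = 0.0170) at 1 day and 1.55 (SE 0.241, adjusted p = 0.00713) at 3 days. Without the factors, both calls were lost (0.88, adjusted p = 0.332, and 1.35, adjusted p = 0.257). Within these 2 sets the log2 ratios were 0.83 and 0.75 at 1 day and 1.62 and 0.85 at 3 days.

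The promoter window of Itgb1 is shown as that of the called member with the highest level, with its 1 GC box (GGGCGG) in capitals. It held no AP-1 site (TGANTCA) and no cAMP response element (TGACGTCA), which says only that these letters are not in this window. Itga7 and Lamc1 are named only.

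Itgb1, chr8:128685404-128685703, plus strand: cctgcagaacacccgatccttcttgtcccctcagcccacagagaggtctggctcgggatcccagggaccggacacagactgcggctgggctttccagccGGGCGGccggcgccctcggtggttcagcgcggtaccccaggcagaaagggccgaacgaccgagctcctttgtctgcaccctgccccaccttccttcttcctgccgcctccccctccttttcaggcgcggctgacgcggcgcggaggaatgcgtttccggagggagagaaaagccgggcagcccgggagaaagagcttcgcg

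Itgb5 and Lamc1 rested on fewer reads. Itgb5, a beta partner of Itgav, lies at chr16:33829665-33949338 (plus strand). It ranged from 0 to 17.0 CPM in naive mice, with a median of 5.80 CPM, and had 13.4, 23.3, 6.38 and 13.4 CPM at SNI 1 d and 24.1, 10.8 and 19.7 CPM at SNI 3 d. Naive replicates 1, 3 and 4 lay above the lowest SNI 1 d mouse, and naive replicate 3 above the lowest SNI 3 d mouse. Its log2 fold change was 1.74 (SE 0.458, adjusted p = 0.0458) and 2.32 (SE 0.489, adjusted p = 0.0235). The calls were lost without naive replicate 5 (0.82, adjusted p = 0.290, and 1.31, adjusted p = 0.120), without SNI 1 d replicate 2 (1.45, adjusted p = 0.123) and without SNI 3 d replicate 1 (2.07, adjusted p = 0.125). Without the factors they were lost as well (1.07, adjusted p = 0.607, and 1.44, adjusted p = 0.50). Within these 2 sets its log2 ratios were 1.05 and 2.05 at 1 day and 0.98 and 3.05 at 3 days. In the second set, naive replicates 5 and 6 had 0 and 4.76 CPM, from 1 well each.

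Lamc1, the gamma chain of most laminins, lies at chr1:153218922-153332786 (minus strand). It ranged from 0.403 to 6.58 CPM in naive mice, with a median of 4.04 CPM, and had 13.5, 13.3, 5.71 and 9.91 CPM at SNI 1 d. Naive replicates 1 and 2 reached the lowest SNI mouse. Its log2 fold change was 1.73 (SE 0.427, adjusted p = 0.0347), and 1.54 (adjusted p = 0.340) without the factors. At SNI 3 d it had 3.26, 7.58 and 9.70 CPM (1.15, adjusted p = 0.147). Within these 2 sets its log2 ratios at 1 day were 1.39 and 3.53. In the second set, naive replicates 5 and 6 had 0.403 and 0.952 CPM, from 1 well each.

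The other 2 calls each came from 1 mouse. Col8a1, a short-chain collagen of vessel walls, had 0.403 CPM or less in naive mice and 0.922, 0.485, 14.9 and 0.0982 CPM at SNI 1 d (adjusted p = 0.0817). Without SNI 1 d replicate 3 the call was lost (adjusted p = 0.248), as it was without naive replicates 1, 3, 5 or 6 (adjusted p 0.108 to 0.141). Itgax, a leukocyte integrin subunit, was at 0 in all naive mice except replicate 6 (0.0866 CPM) and in all SNI 1 d mice except replicate 4 (3.47 CPM). Its call was lost without naive replicates 5 or 6 (adjusted p = 0.496 and 0.430) or SNI 1 d replicates 1 or 2 (adjusted p = 0.135 and 0.117). No fold is given for these genes, whose naive mice were at or near 0 in these wells. With all wells, naive replicate 5 had 144.1 CPM of Col8a1 and 36.8 CPM of Itgax, naive replicate 6 had 12.7 CPM of Itgax, and neither gene was called at SNI 1 d (adjusted p = 0.249 and 0.162).

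Lama3, a laminin alpha chain named after its values were seen, missed the threshold at both times. It ranged from 0 to 2.46 CPM in naive mice, with a median of 0.646 CPM, and had 6.17, 3.10, 21.2 and 4.09 CPM at SNI 1 d and 9.43, 3.85 and 14.4 CPM at SNI 3 d, where every SNI mouse was above every naive mouse (3.76, adjusted p = 0.102, and 3.68, adjusted p = 0.104). With all wells it had 4.39 (adjusted p = 0.205) and 2.41 (adjusted p = 0.499), and SNI 3 d replicate 3 was at 0 CPM.

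**Figure D5:**
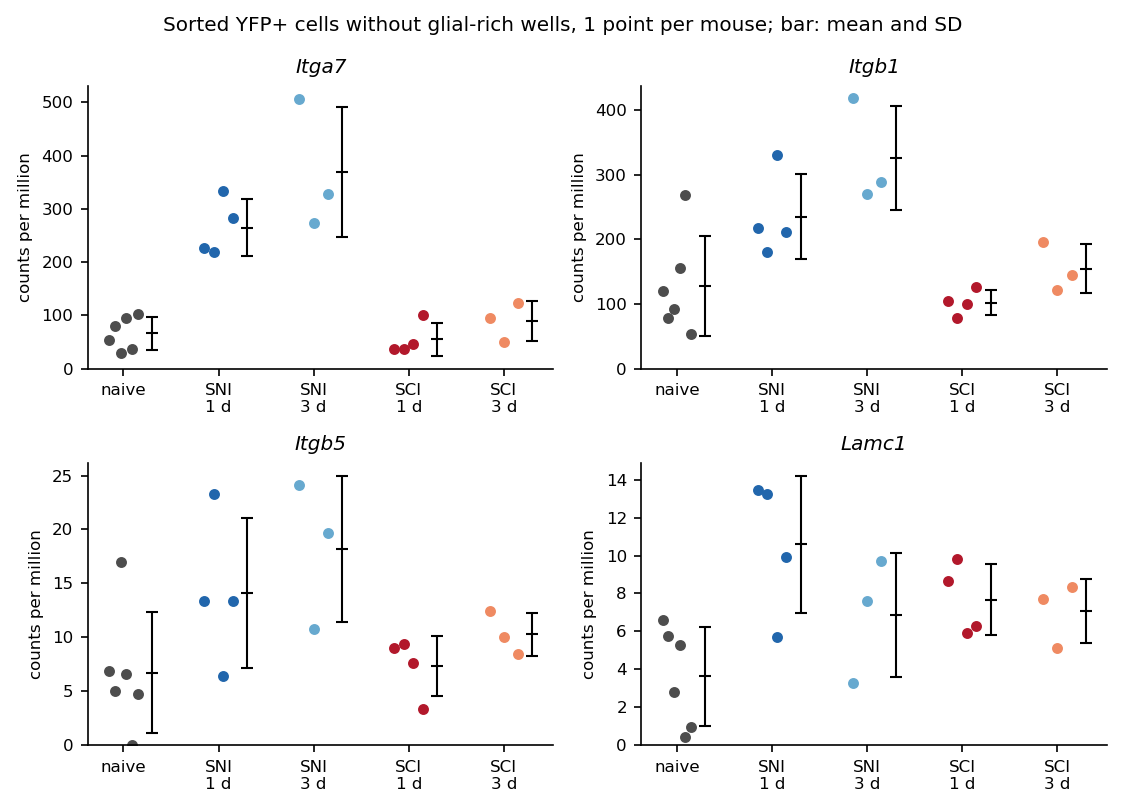
CPM of Itga7, Itgb1, Itgb5 and Lamc1 in sorted cells without the glia-rich wells, with 1 point per mouse and the mean and SD of each group beside them. The 7 SNI mice lay at 218.0 CPM or more for Itga7, and all naive and SCI mice at 123.1 CPM or less.

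After SCI, no member was called in sorted cells in either set of wells. Without the glia-rich wells, 0 of 73 members were called in SCI 1 d against naive, with 0.217% of all genes called, and 0 of 73 in SCI 3 d against naive, with 0.0% of all genes. An unadjusted p under 0.05 was reached by 5 and 6 of 73 members, beside 17.5% and 14.6% of the 22620 genes. DESeq2 called 5 and 4 members, beside 1761 and 857 genes. Itga7 had 37.6, 35.9, 45.1 and 100.8 CPM at SCI 1 d and 94.8, 49.3 and 123.1 CPM at SCI 3 d, values that overlapped those of naive mice (log2 differences -0.24, SE 0.364, and 0.48, SE 0.389; -0.04 and -0.26 over all wells). Itgb1 had 104.6, 78.4, 99.3 and 126.3 CPM and 196.1, 122.1 and 144.9 CPM (-0.12, SE 0.228, and 0.50, SE 0.246; -0.57 and 0.33 over all wells). The smallest adjusted p among the panel genes was 0.163 at 1 day, for Lamc1 (1.32, SE 0.424), and 0.233 at 3 days, for Itgb4 (-3.74, SE 1.21), a laminin receptor subunit of myelinating glia.

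Compared directly, Itga7 and Itgb1 were higher in SNI 1 d than in SCI 1 d. These were the 2 of 73 members called, beside 0.889% of all genes. The log2 difference was 2.28 (SE 0.415, adjusted p = 0.0350) for Itga7 and 1.19 (SE 0.252, adjusted p = 0.0573) for Itgb1, and no SNI 1 d mouse overlapped an SCI 1 d mouse for either gene. With all wells they were 1.88 (adjusted p = 0.461) and 1.07 (adjusted p = 0.447), neither called. The log2 ratios within these 2 sets were 2.60 and 2.07 for Itga7 and 1.12 and 1.27 for Itgb1. The Itga7 call was lost without SNI 1 d replicate 3 (2.14, adjusted p = 0.130) or SCI 1 d replicates 2 (2.09, 0.138) or 3 (2.20, 0.123), and without the factors (2.27, adjusted p = 0.107). The Itgb1 call was lost when any of 6 of the 8 mice was left out, these being SNI 1 d replicates 1, 3 and 4 and SCI 1 d replicates 1, 2 and 3, with log2 differences of 0.99 to 1.21 and adjusted p of 0.110 to 0.213, and without the factors (1.20, adjusted p = 0.50).

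At 3 days, SNI and SCI were not told apart for any member. Here 0 of 73 members were called (0.0% of all genes), 8 had an unadjusted p under 0.05 (7.42% of all genes) and DESeq2 called 3, beside 571 genes. Itga7 had a log2 difference of 2.06 (SE 0.475, adjusted p = 0.474) and Itgb1 of 1.06 (SE 0.290, adjusted p = 0.558), against 2.45 (adjusted p = 0.584) and 0.42 (adjusted p = 0.673) over all wells. The 3 SNI mice lay above the 3 SCI mice for both genes.

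Calls among the partner genes of matrix and adhesion depended on the factors. Without the glia-rich wells, 15 of 60 tested were called at SNI 1 d (beside 8.17% of all genes), 14 of them raised, and 12 at SNI 3 d (beside 7.57%), 11 of them raised. Their median log2 fold changes were 1.16 and 1.14, in a fit where all genes had medians of 0.40 and 0.39. Without the factors, 0 of the 60 were called at either time and the medians were 0.39 and 0.44. With all wells, 1 and 2 of 61 were called, Vtn at both times and Tln1 at 3 days. The values that follow are from the fit with the factors and without the glia-rich wells. Tln1, the talin that links integrin beta tails to actin, rose by 1.01 (adjusted p = 0.0155) and 1.25 (adjusted p = 0.0126) on the log2 scale at 1 and 3 days, whereas Tln2 had -1.17 (adjusted p = 0.0539) at 1 day. The collagen-modifying enzymes P4hb (0.83, adjusted p = 0.0260), P4ha2 (2.38, adjusted p = 0.0616) and Plod3 (1.5, adjusted p = 0.0336) rose at 1 day and were called again at 3 days. Ptk2, the focal adhesion kinase, rose at 1 day (1.11, adjusted p = 0.0941), and Vcl, vinculin, at 3 days (1.28, adjusted p = 0.0713). The matrix protein Spp1 rose at 1 day (2.30, adjusted p = 0.0270). Without the factors, Tln1 had 0.98 and 1.23 at 1 and 3 days, and Vcl had 0.79 at 3 days. At 1 day, Tln2 then had -1.28, P4hb 0.51, P4ha2 1.08, Plod3 0.97, Ptk2 0.37 and Spp1 1.37. With all wells and the factors, the 1 day values were 0.74 for Tln1, -0.80 for Tln2, -0.15 for P4hb and 1.84 for P4ha2. There Plod3 had 0.13, Ptk2 0.03 and Spp1 0.57. None of the 60 was called after SCI at either time, and Plod3 (2.08, adjusted p = 0.0492) and Tln1 (0.99, adjusted p = 0.0845) were higher in SNI 1 d than in SCI 1 d, which neither was without the factors (2.04 and 0.98, adjusted p = 0.50 and 0.488). These partners were named from their calls in sorted cells, after their values were seen.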

How the data were processed

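Per the labels and methods of the study, reads were trimmed with cutadapt, aligned to mm10 with STAR 2.5.3a and counted per gene with HTSeq 0.6.1. The deposited files hold raw counts per gene, 1 file per library, made by the authors, and 5 lines naming no gene (33.1 to 66.9% of all reads) were left out. Other deposited tables hold the authors' fold changes, p-values and normalized values and were not used, and 123 per-sample columns in them were not used here. Whole DRG libraries were depleted of ribosomal RNA, and sorted cells were amplified with an ultra low input kit, so the 2 kinds are not on 1 scale.

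Wells were summed per mouse. Counts were tested with edgeR 4.0.16 (quasi-likelihood, TMM, R 4.3.3) over all genes averaging 10 reads or more (whole DRG) or at least 20 reads in 1 mouse (sorted cells, 5 groups in 1 fit with 2 RUVr factors), and called at a Benjamini-Hochberg adjusted p under 0.1. DESeq2 1.42.0 was an alternative. CPM are TMM-normalized, and TPM use exon lengths of the GENCODE annotation of GRCm38. P-values measure the spread between mice. In sorted cells this is the spread left after the RUVr factors, where used, which were estimated from the same mice. The tests were run on simulated data first.

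Named genes were called members (at most 15 in whole DRG, 5 per sorted comparison), a panel of 29 members, the 3 highest of each family, and called partners (at most 8). Members and lists were chosen with earlier results of these data known. Other names were chosen after their values were seen: Col14a1, Col20a1, Lama3, Itga3, Itga2b, Itgax, the other members listed by well, the genes given for their level, and the partners in sorted cells.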

Additional observations from a re-analysis of the deposited data

Results flagged for a closer look

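In 40 groups of 4 to 6 mice checked for a mouse far from the others, 5 stood out. The nominal rate of the rule used is about 1 in 20. That rate was not checked for groups at or near 0, such as those of Itgax and Col8a1. Itgam in whole DRG after SCI had a highest mouse of 1.89 CPM, with the other 3 between 1.26 and 1.34 CPM. Without that mouse, replicate 2, its log2 fold change was 0.99 (adjusted p = 0.129). In sorted cells without the glia-rich wells, the highest SCI 1 d mouse for Itga7 had 100.8 CPM and the others 35.9 to 45.1 CPM. Col8a1 had 14.9 CPM in 1 SNI 1 d mouse and 0.0982 to 0.922 CPM in the others. Itgax had 0.0866 CPM in 1 naive mouse and 3.47 CPM in 1 SNI 1 d mouse, with all others in these 2 groups at 0.

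The response differed between the injuries for Itga7 and Itgb1 at 1 day, by the test of SNI 1 d against SCI 1 d itself. The log2 differences were 2.28 (adjusted p = 0.0350) and 1.19 (adjusted p = 0.0573), and every SNI 1 d mouse was above every SCI 1 d mouse, 4 against 4, for both genes. The Itga7 call was lost in 5 of 14 alternatives and the Itgb1 call in 10 of 14, both without the factors of unwanted variation. All wells gave 1.88 (adjusted p = 0.461) and 1.07 (adjusted p = 0.447).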

How the results depend on the processing

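Of 224 alternative counts of called members, 176 stayed within 1.5 times the reported count and 48 moved. Every comparison over all wells of sorted cells had a reported count of 0, and a count that stayed there was again 0. Where members were called, fewer counts stayed. These were 9 of 16 in whole DRG and, without the glia-rich wells, 10 of 16 in SNI 1 d, 9 of 15 in SNI 3 d and 3 of 14 in SNI 1 d against SCI 1 d. Of 475 alternative folds of named members, 385 kept their direction and their side of the threshold, 71 lost a call, 15 gained one and 4 turned sign. In whole DRG, where 3 members were called, there were 5 with no count filter, 1 with the replicate block, 0 with the haemoglobin or the fibroblast covariate and 0 to 6 with 1 mouse left out (0 without uninjured replicate 2, 1 without SCI replicate 1, 6 without SCI replicate 3). All genes called went from 408 to 929 with DESeq2, 127 with the block, 9 with haemoglobin and 4 with fibroblast markers. With haemoglobin, Itgb2 (-0.10), Lama5 (-0.06) and Itga5 (-0.11) turned sign, as did Lama5 (-0.23) with fibroblast markers. Integrins went from 19 to 8 of 29 higher and laminins from 7 to 2 of 11 with haemoglobin, and to 12 and 4 with fibroblast markers.

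Over all wells of sorted cells, DESeq2 called 8 members in SNI 1 d, 8 in SNI 3 d, 9 in SCI 1 d, 9 in SCI 3 d, 8 in SNI 1 d against SCI 1 d and 3 in SNI 3 d against SCI 3 d. Naive mice of the same day gave 1 in SNI 1 d, and a minimum of 20 reads in 4 mice gave 2 in SNI 3 d, where leaving out 1 mouse gave 0 to 2 (1 without naive replicate 3, and 2 without naive replicates 5 or 6 or SNI 3 d replicate 3). Leaving out the glia-rich wells gave 6 in SNI 1 d, 3 in SNI 3 d and 2 in SNI 1 d against SCI 1 d. From there, SNI 1 d had 1 with no factor, with 1 factor or with the title set as covariate, 0 with the replicate block, 11 with DESeq2 and 3 to 9 with 1 mouse left out (3 without naive replicate 5). SNI 3 d had 1 with no factor, the set or the replicate block, 8 with DESeq2 and 2 to 6 with 1 mouse left out (6 without naive replicate 2, 5 without naive replicate 4). SNI 1 d against SCI 1 d had 0 with no factor or the replicate block, 1 with 1 factor or the set, 5 with DESeq2 and 0 to 2 with 1 mouse left out. DESeq2 called 5 in SCI 1 d, 4 in SCI 3 d and 3 in SNI 3 d against SCI 3 d. Genes called over the whole table moved too. From 1848, 1712 and 201 in SNI 1 d, SNI 3 d and SNI 1 d against SCI 1 d, they went to 39, 14 and 0 with no factor, 343, 168 and 20 with 1 factor, 51, 57 and 13 with the set, 24, 10 and 4 with the block and 3102, 2732 and 1464 with DESeq2. Without the glia-rich wells, Itga7 kept its call in 15 of 16 alternatives at SNI 1 d (1.86 to 2.22) and in 15 of 15 at SNI 3 d (2.23 to 2.72). It lost the first with the replicate block (1.86, adjusted p = 0.103). Over all wells, where it was not called, it gained a call in 1 of 20 alternatives at SNI 1 d and in 4 of 20 at SNI 3 d.

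Samples were not paired by replicate number in the main fits. The correlations that follow cannot exclude pairing, because mice of different numbers were not compared. Deviations of same-numbered whole DRG mice correlated at -0.158 to 0.257, and those of sorted mice of 1 set and number at -0.04 to 0.382 over all wells and -0.079 to 0.269 without the glia-rich ones. The causes of these moves were not tested. Depth was not even, and genes under about 1 CPM in sorted cells rest on few reads of about 100 cells.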
